A study of Mus musculus with 23 samples.

Results

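A set of 33 genes of glucose uptake, glycolysis, lactate handling and pyruvate entry into mitochondria was described in RNA-seq of the whole mouse hippocampus. They are 33 of the 52636 genes in the count files, were taken as a list of symbols by their role in the pathway, and all 33 passed the filter on low counts. The list was chosen with earlier results of these data known. The groups were wild-type (WT) mice in normoxia (6 libraries), WT mice in hypoxia (6), P301S mice in normoxia (5) and P301S mice in hypoxia (6). The P301S change in human tau makes transgenic mice form tau aggregates, and by its title the study examined what chronic intermittent hypoxia does in such mice. All 4 groups shared a mixed C57Bl6 and Balbc background, so WT here is not an inbred strain. Sources used here give neither the promoter of the transgene nor the age and sex of the mice nor the regimen of hypoxia. RNA came from flash-frozen whole hippocampus, and only RNA with an integrity number above 9 was sequenced. Whether each library stands for its own animal is not stated, and p-values therefore reflect library-to-library spread, which may be technical. Titles carry a number of unstated meaning that no library shares with one of another group, so whatever it stands for cannot be told apart from genotype or hypoxia. In WT libraries that number recurs within a group, 5 of 6 WT normoxia libraries sharing 1 number.

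Glycolysis splits glucose into pyruvate in the cytosol, after glucose transporters bring it into the cell and hexokinase and phosphofructokinase commit it to the pathway. Pyruvate is then either reduced to lactate by lactate dehydrogenase, leaving the cell through monocarboxylate transporters, or carried into mitochondria, where the pyruvate dehydrogenase complex turns it into acetyl-CoA under the brake of the pyruvate dehydrogenase kinases. In brain, glucose is the main fuel, lactate passes between glia and neurons, and many of these genes are known targets of the hypoxia-inducible factor HIF-1.

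Depth was 19.1 to 25.8 M counted read pairs, scaling factors from 0.961 to 1.03, and the 33 genes together took 0.749% to 0.913% of a library. Markers of hippocampal neurons were high in every library (Slc17a7, the vesicular glutamate transporter of excitatory neurons, 886 to 1385 CPM, counts scaled to a common library size of 1 M). Myelin and astrocyte water channel transcripts were present (Mbp 1468 to 2511 CPM, Aqp4 98.1 to 167 CPM), while the defining markers Gfap of astrocytes and P2ry12 of microglia were listed at 0 counts in all 23 libraries. Because read pairs that touch more than 1 gene were dropped in counting, a listed 0 need not mean absent expression. Its cause was not tested. Ttr, the main transcript of the choroid plexus, ranged from 30.1 to 3176 CPM, a spread far wider than that of the other markers named here. In 6 libraries the choroid plexus markers stood lowest (WT normoxia replicate 4, WT hypoxia replicates 1, 4 and 5, P301S hypoxia replicates 1 and 4). In bulk tissue, fewer cells of a type and less RNA per cell cannot be told apart.

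Levels are compared between genes as CPM per kb of exon, with the caution that the authors counted whole gene bodies, introns included. Aldoa, the muscle-type aldolase that splits fructose bisphosphate, was highest with a mean of 333 CPM per kb over 23 libraries (269 to 392). Next came Ldhb (mean 187), Pkm (180), Eno2 (175) and Aldoc (170), whose ranges over libraries overlapped one another, so their order is not resolved. Ldhb, the lactate dehydrogenase subunit of oxidative tissues, stood above Ldha (mean 53.8 CPM per kb, 42.1 to 64.8) with no overlap. Hk1, the main brain hexokinase, had 57.2 CPM per kb and Hk2 1.28. The muscle phosphofructokinase Pfkm (122) stood above the liver form Pfkl (40.7), which stood above the platelet form Pfkp (24.2), with no overlap between any pair. The order of Pfkl and Pfkp rests on their exon lengths (6.68 and 13.4 kb). In CPM without that division Pfkp had the higher mean (324 against 271), so their order is not resolved. Lowest were Slc16a3, the lactate exporter of glycolytic cells (0.511), and Pfkfb2, one of the enzymes that make and break the phosphofructokinase activator fructose 2,6-bisphosphate (0.303), with overlapping ranges.

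**Figure D1:**
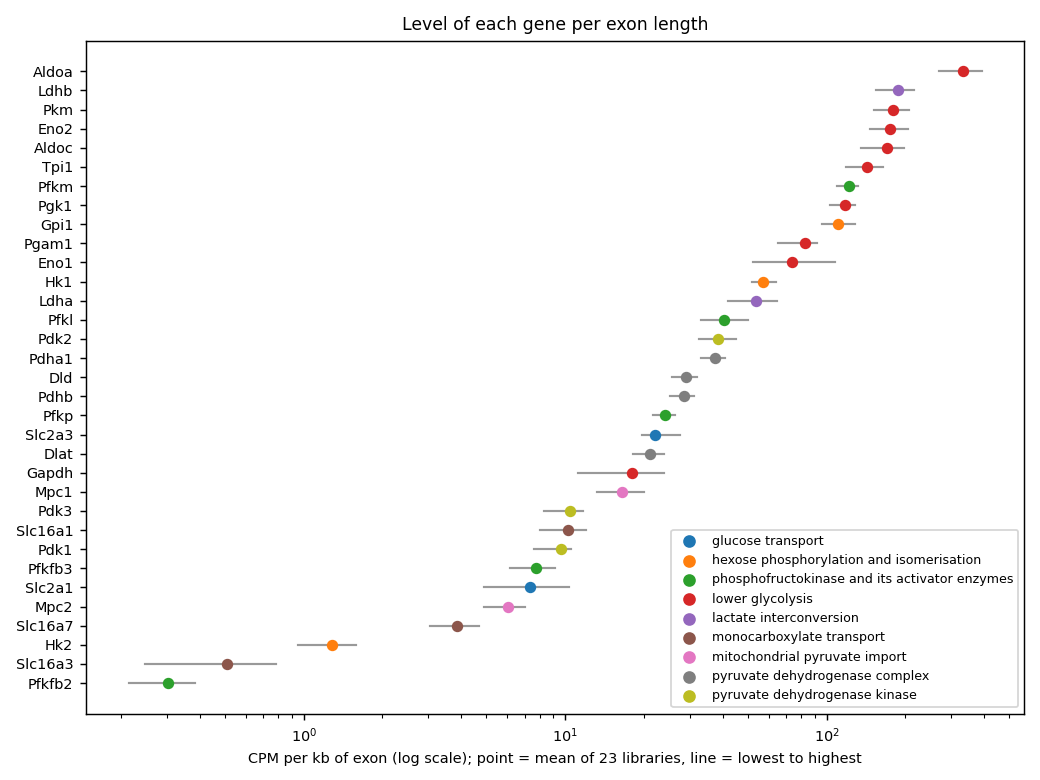
Level of the 33 genes in CPM per kb of exon (x axis, log scale), coloured by role, with the mean of 23 libraries as a point and the lowest to highest library as a line. Aldoa (333) stands above the next 4 genes, whose lines overlap, and the genes span about 3 orders of magnitude down to Pfkfb2 (0.303).

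For some members the level is a part of the true one, because read pairs that touch more than 1 gene are dropped and near-identical copies share reads. Exons lie under other genes over 61.3% of their length in Slc2a1, 67.1% in Mpc1 (4930506C21Rik), 50.6% in Aldoa (Fam57b) and 92.2% in Pfkfb2. Gm12868 covered 14.5% of the Slc2a1 gene body, where all overlapping genes covered 17.1%. Gm29427 covered 66.4% of the Pfkfb2 gene body, where all overlapping genes covered 88.2%. For Slc2a1 and Pfkfb2 the exon share of each overlapping gene was not separated. Of all stretches of 100 bases in their transcripts, Pgk1 shared 51.7% (mostly with Pgk1-rs7), Pgam1 33.9% (Pgam1-ps2), Gapdh 20.9% (86 genes) and Eno1 20.4% (mostly Eno1b). Gapdh, the dehydrogenase often taken as a stable reference, had 18 CPM per kb, and its 74.4 CPM should be read with those copies in mind. The values of these genes are uncertain in this sense throughout.

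The hypoxia-inducible factors bind a short core in DNA, and 5 promoters are printed because their genes carry the main results: Ldha and Pgk1, both known HIF-1 targets, and Tpi1, all lower in P301S, Slc2a1, higher in hypoxia, and Slc16a1, lower in hypoxia. Each runs 5′ to 3′ from 250 bases before to 50 after a transcript start (RefSeq, GRCm38.p6), and capitals mark ACGTG or GCGTG, the forms of the core, on either strand. They are chr7:46845554-46845853 (plus strand) for Ldha, chrX:106186850-106187149 (plus) for Pgk1, chr6:124814109-124814408 (minus) for Tpi1, chr4:119108495-119108794 (plus) for Slc2a1 and chr3:104638414-104638713 (plus) for Slc16a1.
Ldha: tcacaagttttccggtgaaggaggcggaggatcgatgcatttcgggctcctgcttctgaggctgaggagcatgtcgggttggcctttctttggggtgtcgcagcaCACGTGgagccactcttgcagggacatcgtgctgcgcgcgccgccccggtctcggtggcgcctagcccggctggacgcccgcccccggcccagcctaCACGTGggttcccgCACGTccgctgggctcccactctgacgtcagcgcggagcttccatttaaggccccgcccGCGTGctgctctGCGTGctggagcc
Pgk1: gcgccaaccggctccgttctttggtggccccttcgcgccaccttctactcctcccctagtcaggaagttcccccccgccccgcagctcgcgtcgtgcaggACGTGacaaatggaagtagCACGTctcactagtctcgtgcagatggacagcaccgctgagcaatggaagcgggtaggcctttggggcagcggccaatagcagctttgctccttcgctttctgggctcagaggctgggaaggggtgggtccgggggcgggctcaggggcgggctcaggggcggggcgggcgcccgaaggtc
Tpi1: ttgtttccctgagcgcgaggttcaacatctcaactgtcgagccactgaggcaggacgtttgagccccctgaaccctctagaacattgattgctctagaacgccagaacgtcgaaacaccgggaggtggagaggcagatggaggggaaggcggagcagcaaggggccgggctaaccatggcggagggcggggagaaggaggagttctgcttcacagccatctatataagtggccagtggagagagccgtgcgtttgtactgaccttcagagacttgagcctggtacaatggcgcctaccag
Slc2a1: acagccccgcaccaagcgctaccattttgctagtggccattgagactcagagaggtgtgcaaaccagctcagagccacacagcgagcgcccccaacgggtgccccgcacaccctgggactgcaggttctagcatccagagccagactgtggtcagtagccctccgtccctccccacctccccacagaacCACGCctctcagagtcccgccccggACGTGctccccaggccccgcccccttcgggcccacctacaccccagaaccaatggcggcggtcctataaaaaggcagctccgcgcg
Slc16a1: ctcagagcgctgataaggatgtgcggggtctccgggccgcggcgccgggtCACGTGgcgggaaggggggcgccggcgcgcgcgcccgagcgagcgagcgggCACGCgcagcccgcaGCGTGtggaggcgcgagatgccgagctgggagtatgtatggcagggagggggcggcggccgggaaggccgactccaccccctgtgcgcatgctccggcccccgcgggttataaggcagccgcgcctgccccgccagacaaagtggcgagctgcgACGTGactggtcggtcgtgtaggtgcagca
Counted on both strands, where CACGTG counts as 2 matches because it reads the same on both, the printed Ldha promoter held 5 matches to ACGTG and 2 to GCGTG. That of Pgk1 held 2 and 0, that of Slc2a1 1 and 1, that of Slc16a1 3 and 2, and that of Tpi1 none of either. Ldha has a second promoter, at another transcript start (chr7:46846832-46847131, not printed), which held 0 and 2. Of the 33 genes, 31 had promoters in the table (48 promoters of 300 bases), and 22 of 48 (45.8%) held ACGTG against 19.6% of all 32851 promoters. For GCGTG the shares were 54.2% and 32.4%. Base composition differs: among promoters of at least 60% GC, ACGTG stood in 17 of 28 member promoters (60.7%) and 26.5% of all, and GCGTG in 60.7% and 59.2%. The 16 promoters of the 11 genes lower in P301S on average held ACGTG in 50% and those of the other members in 43.8%. A match describes the letters only and shows no binding.

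In normoxia, 5 of 9 genes of the steps from aldolase to pyruvate kinase, here called lower glycolysis, were lower in P301S than in WT hippocampus. Of the 33 genes, 7 were lower and 1 higher (edgeR quasi-likelihood test, Benjamini-Hochberg adjusted p below 0.05 over 17788 genes), where 6.35% of all tested genes were called and 3.78% were called lower. The median log2 fold change of the members was -0.11, beside 0.01 over all tested genes, and 24 of 33 were negative. Beside the 5 lower glycolysis genes, 1 of 2 lactate dehydrogenase genes and 1 of 4 pyruvate dehydrogenase complex genes were lower. The 4 lower glycolysis genes not called had log2 fold changes from -0.41 (Eno1) to -0.01 (Gapdh). None of the 10 genes of glucose transport, hexose phosphorylation and isomerisation, and phosphofructokinase was called by edgeR or DESeq2, with 2 (Pfkl and Pfkm) at an unadjusted p below 0.05. Whether these steps differ from lower glycolysis was not tested.

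Ldha, the subunit of lactate dehydrogenase that favours lactate formation, had the largest called decrease. Its level in WT normoxia ran from 162 to 206 CPM (median 193), and the 5 P301S normoxia libraries had 164, 139, 149, 149 and 155 CPM. All but 1 of the P301S libraries lay below all WT libraries, and the log2 fold change was -0.32 ± 0.07 (SE, adjusted p = 0.0117, edgeR). This call was kept whichever single library was left out. Tpi1, triosephosphate isomerase, had 365 to 443 CPM in WT (median 420.3) and 388, 334, 348, 340.1 and 327 CPM in P301S. Here too only the first P301S library reached into the WT range, with a log2 fold change of -0.26 ± 0.06 (adjusted p = 0.0152), lost by a narrow margin without P301S normoxia replicate 2 (adjusted p = 0.0536).

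Aldoa had 849.6 to 1141 CPM in WT normoxia (median 1014) and 949.9, 803, 834, 822 and 814 CPM in P301S normoxia, a log2 fold change of -0.27 ± 0.07 (adjusted p = 0.0254). Pkm, pyruvate kinase, which makes the pyruvate, had 808 to 1036 CPM (median 929) against 907, 762, 785, 800.3 and 769 CPM (-0.22 ± 0.06, adjusted p = 0.0441). In both genes the first P301S library lay within the WT range and the other P301S libraries lay below it. Pgam1, phosphoglycerate mutase, had 158 to 182 CPM (median 170.3) against 163, 154, 149.8, 129 and 139.7 CPM (-0.20 ± 0.05, adjusted p = 0.0261).

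Pgk1, phosphoglycerate kinase, the first step that yields ATP, separated the groups fully: 259 to 283 CPM in WT normoxia (median 273) and 247, 231, 245, 249 and 251 CPM in P301S normoxia. Its log2 fold change was small, -0.16 ± 0.05 (adjusted p = 0.0421). Pdhb, the beta subunit of the first pyruvate dehydrogenase enzyme, separated them as well, with 109 to 119.8 CPM in WT (median 112) and 104, 101, 100.3, 97.6 and 107 CPM in P301S (-0.15 ± 0.04, adjusted p = 0.0340). Groups without overlap in the lower direction were found for these 2 members and for 1.72% of all tested genes. The other genes of the complex, Pdha1 (-0.01), Dlat (0.02) and Dld (0.01), had log2 fold changes near 0.

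Of the members of these stages that were not called in normoxia, Eno1 had the largest log2 fold change of all, -0.41 ± 0.13 (adjusted p = 0.0695). It varied widely within groups, from 346 to 580.0 CPM in WT normoxia and 281 to 417 CPM in P301S normoxia. Eno2, the neuronal enolase, had -0.20 ± 0.07 (adjusted p = 0.0767), Aldoc, the aldolase typical of astrocytes, -0.17 ± 0.07 (0.139), and Ldhb -0.17 ± 0.07 (0.147). Gapdh had -0.01 ± 0.16. DESeq2 called Eno1 (adjusted p = 0.0264) and Eno2 (0.0371) lower as well. In this comparison it called 10.2% of the genes to which it gave an adjusted p.

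Mpc1, a subunit of the mitochondrial pyruvate carrier, was the one member called higher by edgeR. It had 27.5 to 35.6 CPM in WT normoxia (median 30.9) and 38.7, 39.5, 36.2, 39.9 and 41.8 CPM in P301S normoxia, a log2 fold change of 0.30 ± 0.06 (adjusted p = 0.00652). Every P301S normoxia library lay above every WT normoxia library, which held upward for 1.62% of all tested genes, and the call was kept whichever library was left out. Its partner Mpc2, with which it forms the carrier, had a log2 fold change of -0.20 ± 0.07 (adjusted p = 0.0837), of opposite sign. DESeq2 called Mpc1 and also Slc16a7 higher in normoxia, the latter at 0.22 (adjusted p = 0.0491).

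How many members were called in normoxia depended on single libraries. Leaving out P301S normoxia replicate 1, which had the highest value of its group in 9 of the 11 lower glycolysis and lactate dehydrogenase genes, gave 14 calls, and leaving out P301S normoxia replicate 2 or 4 gave 3. The share of all tested genes called moved too, to 10.7% without replicate 1, 2.04% without replicate 2 and 3.02% without replicate 4, from 6.35%. WT normoxia replicate 1 was the lowest of its group in 8 of those 11 genes. The calls of Pgk1 and Pkm were each lost in 9 of 11 such fits (highest adjusted p 0.132 and 0.127), both kept only without WT normoxia replicate 1 or P301S normoxia replicate 1. Those of Aldoa (0.0809) and Pdhb (0.0870) were lost in 5, mostly without one of P301S normoxia replicates 2 to 5, and that of Pgam1 (0.0715) without P301S normoxia replicate 4 or 5. All members called in normoxia kept their sign in every one of these fits. Without the 6 libraries of lowest choroid plexus markers, of which WT normoxia replicate 4 is the one in this comparison, Mpc1 alone was called. That fit called 2.16% of all tested genes. The members' median was then -0.08, and Ldha (-0.30, adjusted p = 0.0508) and Tpi1 (-0.24, adjusted p = 0.0650) kept values close to those above. With a score of these markers in the fit all 8 calls were made, with a median of -0.11.

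**Figure D2:**
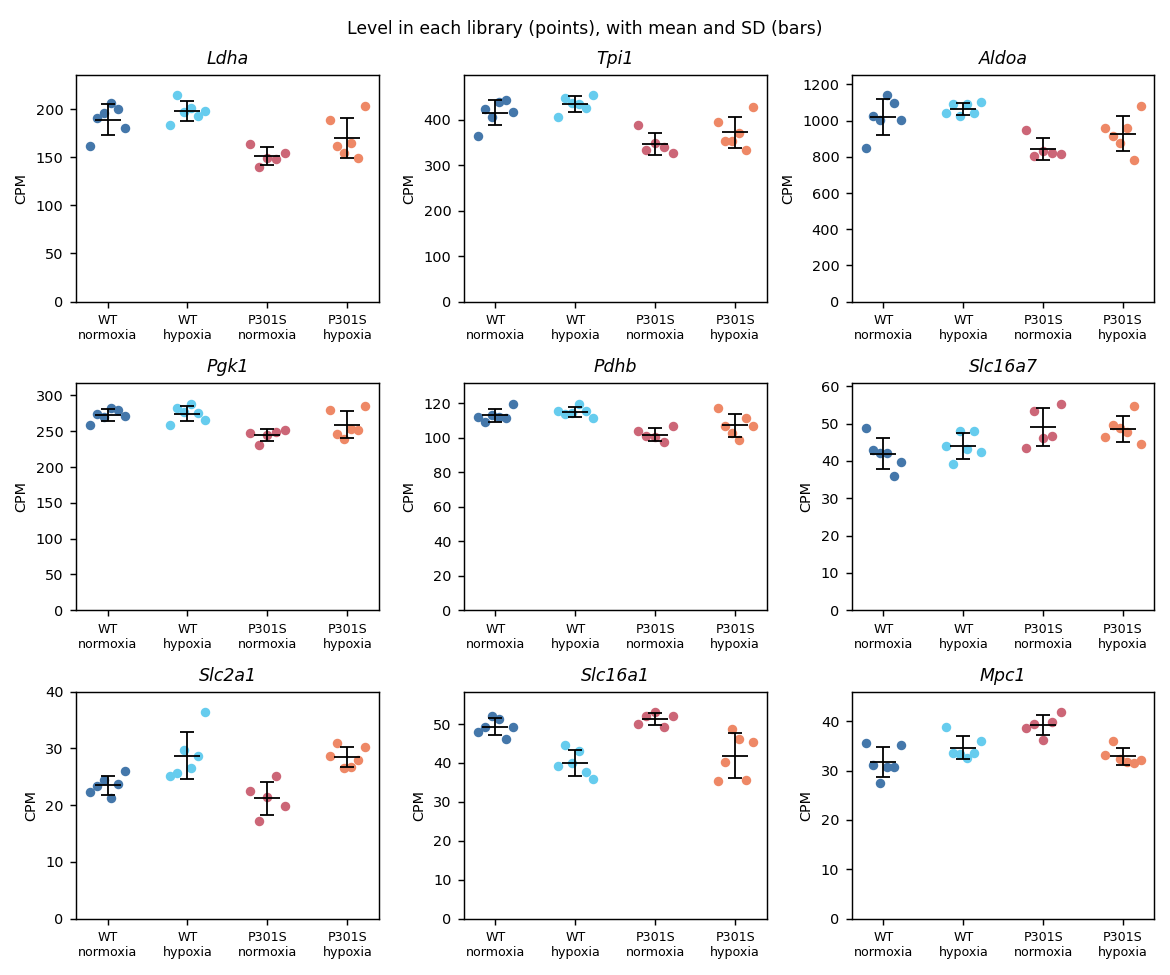
Level of 9 genes in every library (points, CPM), with the mean and SD of each group in black, for WT and P301S in normoxia and hypoxia. Ldha, Tpi1, Aldoa, Pgk1 and Pdhb sit lower in P301S normoxia than in WT normoxia, Slc2a1 is higher and Slc16a1 lower in both hypoxia groups, and Mpc1 is highest in P301S normoxia (36.2 to 41.8 CPM).

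Under hypoxia fewer members were called between the genotypes, though by edgeR no member's genotype difference was shown to change with hypoxia. Only Tpi1 was lower in P301S than in WT, 1 of 33 members, where 1.87% of all tested genes were called. It had 405 to 454 CPM in WT hypoxia (median 436) and 334 to 429 CPM in P301S hypoxia (median 362), with overlapping ranges and a log2 fold change of -0.22 ± 0.06 (edgeR adjusted p = 0.0485). The call was lost in 9 of 12 fits that leave out 1 library (highest adjusted p 0.120, without WT hypoxia replicate 2), and was kept only without WT hypoxia replicate 1 or P301S hypoxia replicate 1 or 6. Ldha had 183 to 214 CPM in WT hypoxia (median 198) and 149 to 203 CPM in P301S hypoxia (median 163), with a log2 fold change of -0.22 ± 0.07 (adjusted p = 0.0964). P301S hypoxia replicate 6 was the highest of its group in 7 of the 11 lower glycolysis and lactate dehydrogenase genes and replicate 5 the lowest in 8. The values of Ldhb (-0.20 ± 0.07, adjusted p = 0.113) and Aldoa (-0.20 ± 0.07, adjusted p = 0.117) were close to that of Ldha. The median over all 33 members was -0.01, and 18 were negative.

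Averaged over both conditions, with more libraries behind each value, 11 members were lower in P301S and 1 was higher, where 13.1% of all tested genes were called and 7.76% lower. The lower ones were 7 of 9 lower glycolysis genes, both lactate dehydrogenase genes, Mpc2 and Pdhb. Ldha fell by 0.27 on the log2 scale (SE 0.05, adjusted p = 0.00124), Tpi1 by 0.24 (SE 0.04, adjusted p = 0.000830) and Aldoa by 0.24 (SE 0.05, adjusted p = 0.00300). Ldhb fell by 0.19, Pkm by 0.18, Mpc2 by 0.15, Aldoc by 0.14, Eno2 by 0.14, Pgam1 by 0.13, Pgk1 by 0.12 and Pdhb by 0.12. Gapdh (0.07 ± 0.11) and Eno1 (-0.20 ± 0.09, adjusted p = 0.171) were the 2 lower glycolysis genes not called. Leaving out 1 library kept 7 of these 11 calls in all 23 fits. Those of Aldoc and Eno2 were lost in 14 fits each (adjusted p up to 0.0959 and 0.0913), that of Mpc2 in 10 (up to 0.0800), and that of Pgam1 without P301S normoxia replicate 5 (0.0530). These averages include the libraries of the comparisons within each condition and are no separate evidence.

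Slc16a7, the monocarboxylate transporter MCT2 through which neurons take up lactate, was the one member higher in P301S on average. It had 35.9 to 48.8 CPM in WT normoxia (median 42.1) and 39.1 to 48.0 CPM in WT hypoxia (median 43.6). In P301S normoxia it had 43.4, 53.4, 46.2, 46.8 and 55.3 CPM, and in P301S hypoxia 44.6 to 54.8 CPM (median 48.2), so the genotypes overlapped in both conditions. The averaged log2 fold change was 0.18 ± 0.05 (edgeR adjusted p = 0.0208), and without P301S normoxia replicate 2 or 5 the call was lost (adjusted p up to 0.0504). With a trend on gene length and GC content removed, the value was 0.03 (adjusted p = 0.681). The other monocarboxylate transporters were not called between genotypes: Slc16a1, or MCT1, had 0.06 ± 0.05 and Slc16a3, or MCT4, -0.09 ± 0.16 on average.

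**Figure D3:**
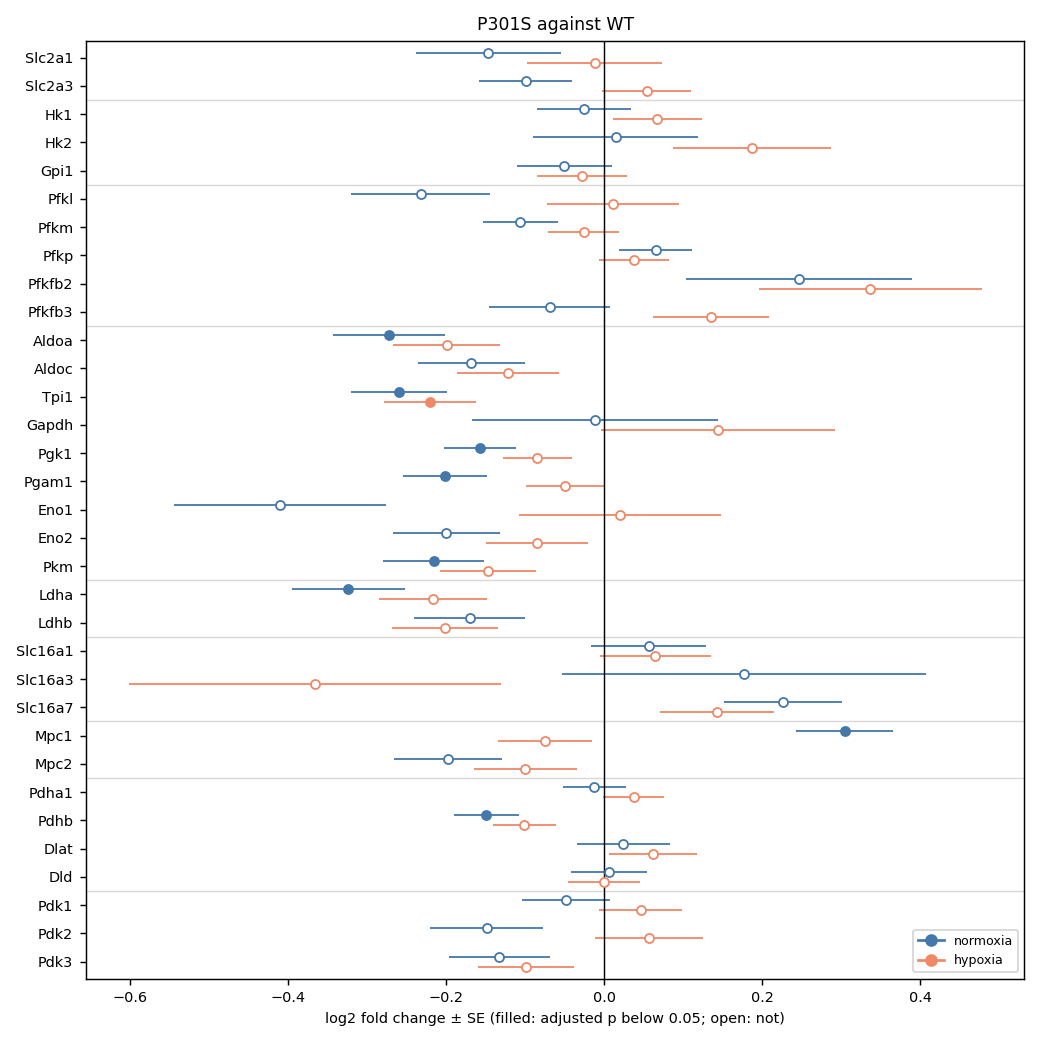
Log2 fold change of P301S against WT with its SE for the 33 genes, ordered by role from glucose transport (top) to pyruvate dehydrogenase kinases (bottom), in normoxia (blue) and hypoxia (orange), with filled points called. The lower glycolysis and lactate dehydrogenase genes lie to the left of 0 in normoxia, Ldha at -0.32, and Mpc1 at 0.30 is the one filled point to the right.

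Fold changes between the genotypes followed gene length over the whole table, and the called members are mostly short, abundant genes. In the averaged comparison, the median log2 fold change of all tested genes went from -0.15 in the 1779 genes with the shortest gene bodies (up to 2.92 kb) to 0.10 in the 1779 with the longest (from 132 kb). Tpi1 spans 3.71 kb, Ldha 14.2 kb, Aldoa 13.7 kb and Slc16a7 170.2 kb. In normoxia, genes of at least 50 CPM were called in 9.45% and lower in 6.26%, and those that are also under 30 kb in 14.7% and 14.2%. Of the 18 members in that last class, 7 were lower (38.9%), with a median log2 fold change of -0.17 beside -0.08 for all 2000 genes of the class. In the averaged comparison, genes of at least 50 CPM were called in 21% and lower in 10.6%, and short ones in 24.6% and 23.1%, while 10 of the 18 members of the class were lower (55.6%). The 6 abundant members of 30 kb or more held no call in either comparison (edgeR). Under hypoxia the genotype comparison called 2.63% of genes of at least 50 CPM and 3.7% of those also under 30 kb, against 1 of 18 members.

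With the trend on length and GC content removed, 433 genes were called in normoxia (124 higher, 309 lower) in place of 1130 (458 higher, 672 lower), and 1061 on average (227 higher, 834 lower) in place of 2333 (952 higher, 1381 lower). Among members, Ldha (-0.30, adjusted p = 0.0257), Pkm (-0.19, adjusted p = 0.0441) and Mpc1 (0.29, adjusted p = 0.0149) remained called in normoxia. The normoxia calls of Tpi1 (-0.15, adjusted p = 0.0838), Aldoa, Pdhb, Pgam1 and Pgk1 were lost. On average 9 members were called, all lower. Tpi1 had -0.15 in place of -0.24, Aldoa -0.18 in place of -0.24 and Ldha -0.25 in place of -0.27. Ldhb (-0.16), Mpc2 (-0.19), Pdhb (-0.10), Pgk1 (-0.12) and Pkm (-0.15) were called as before, and Pdk3 in addition (-0.17, adjusted p = 0.0191). The averaged calls of Pgam1, Aldoc, Eno2 and Slc16a7 were lost. The part of length in the members' differences was otherwise not tested.

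**Figure D4:**
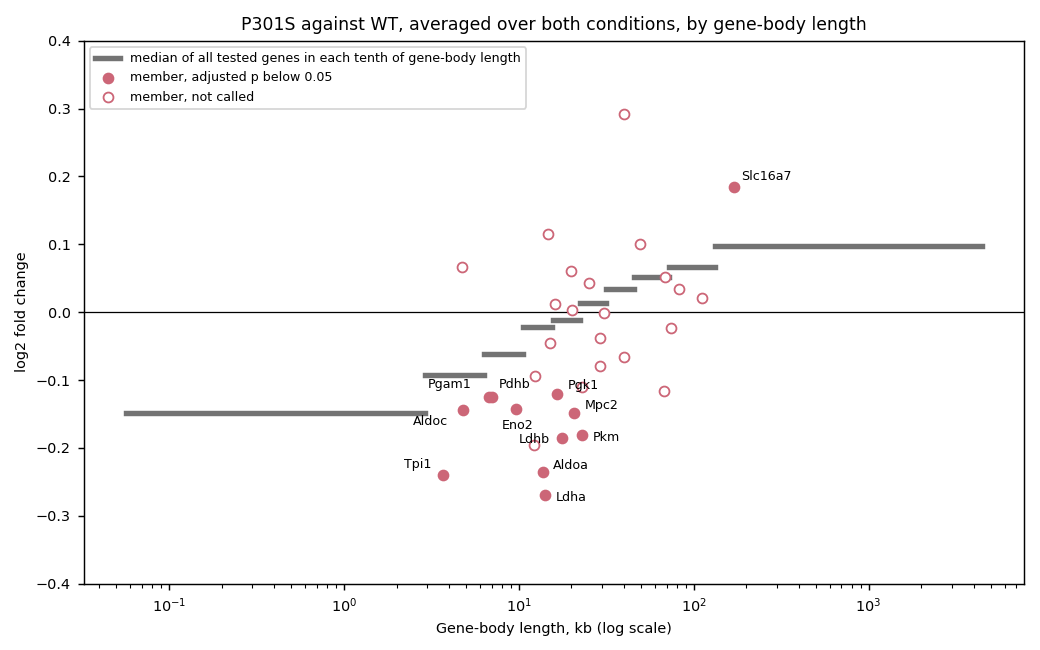
Averaged log2 fold change of P301S against WT (y axis) by gene-body length (x axis, kb, log scale) for the 33 genes as points, filled where called, over grey bars that give the median of all tested genes in 10 classes of length. The bars climb from -0.15 to 0.10, and Ldha, Aldoa and Tpi1 lie below the bar of their own length while Slc16a7 (170.2 kb) is the one called point above 0.

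Hypoxia moved few members. In WT no member was called by edgeR (3 had an unadjusted p below 0.05, and DESeq2 called 1, Slc16a1), where 0.0731% of all tested genes were called, 0.0611% of those of at least 50 CPM and 0.05% of those also under 30 kb. DESeq2 called 0.852% of the genes to which it gave an adjusted p. In P301S 1 member, Slc2a1, was higher, where 0.41% of all tested genes were called (0.428% at 50 CPM or more, 0.3% if also short). DESeq2 called Slc2a1, Slc16a1 and Mpc1 there, beside 2.47% of its genes. Averaged over both genotypes, Slc2a1 was higher and Slc16a1 lower, 2 of 33 members beside 1.33% of all tested genes (1.75% at 50 CPM or more, 1.2% if also short). The members' median log2 fold change was 0.01 in WT, 0.08 in P301S and 0.05 on average.

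Slc2a1 encodes GLUT1, the glucose transporter of the blood-brain barrier and of astrocytes and a known HIF-1 target. It had 21.2 to 26.001 CPM in WT normoxia (median 23.5) and 25.2 to 36.4 CPM in WT hypoxia (median 27.6), with a small overlap. In P301S normoxia the libraries had 22.4, 17.1, 21.4, 25.1 and 19.9 CPM and in P301S hypoxia 26.5 to 30.9 CPM (median 28.3), with no overlap. A separation upward occurred in 1.01% of all tested genes in P301S. The log2 fold change was 0.29 ± 0.09 in WT (edgeR adjusted p = 0.173), 0.43 ± 0.09 in P301S (0.0436) and 0.36 ± 0.06 on average (0.00590), and the effects of the genotypes were not shown to differ (difference 0.13 ± 0.13, adjusted p = 0.786). The average was called in all 23 fits that leave out 1 library. The call in P301S alone was lost in 8 of 11 (adjusted p up to 0.111) and kept only without P301S normoxia replicate 1 or 4 or P301S hypoxia replicate 4. Markers of brain endothelium, where GLUT1 is abundant, had a median log2 fold change of 0.12 on average (11 measured, none called, 6 with an unadjusted p below 0.05). Cldn5, an endothelial tight junction gene, ranged from 12.2 to 27.4 CPM, and the mean log2 level of the endothelial list, centred over libraries, ran from -0.19 to 0.21 in WT normoxia, -0.09 to 0.23 in WT hypoxia, -0.20 to 0.08 in P301S normoxia and -0.23 to 0.18 in P301S hypoxia. Their part in the difference was not tested. The neuronal transporter gene Slc2a3 (GLUT3) had 0.02 ± 0.04.

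Slc16a1 encodes MCT1, the lactate transporter of oligodendrocytes, astrocytes and endothelium. It had 46.1 to 52.1 CPM in WT normoxia and 35.8 to 44.6 CPM in WT hypoxia (medians 49.2 and 39.5), and 50.1, 52.1, 53.0, 49.2 and 52.0 CPM in P301S normoxia against 35.3 to 48.8 CPM in P301S hypoxia (median 42.8). Every hypoxia library lay below every normoxia library of its genotype, which held for 0.394% of all tested genes in WT and 1.12% in P301S. The log2 fold change was -0.30 ± 0.07 in WT (edgeR adjusted p = 0.0893), -0.29 ± 0.07 in P301S (0.0766) and -0.30 ± 0.05 on average (0.00466), where the call held in all 23 fits that leave out 1 library. Without the 6 libraries of lowest choroid plexus markers it stood at an adjusted p of 0.0505. The choroid plexus markers were lower in hypoxia in both genotypes (14 of 14 negative, none called, median -0.84 on average). Their centred mean log2 level ran from -2.54 to 1.67 in WT normoxia, -2.61 to 1.52 in WT hypoxia, -0.58 to 1.79 in P301S normoxia and -2.47 to 1.16 in P301S hypoxia. All 11 measured oligodendrocyte markers were negative as well (median -0.15 on average, none called, 2 with an unadjusted p below 0.05). Their mean level ran from -0.62 to 0.30 in WT normoxia, -0.20 to 0.06 in WT hypoxia, 0.01 to 0.30 in P301S normoxia and -0.56 to 0.11 in P301S hypoxia, and their part in the Slc16a1 difference was not tested.

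**Figure D5:**
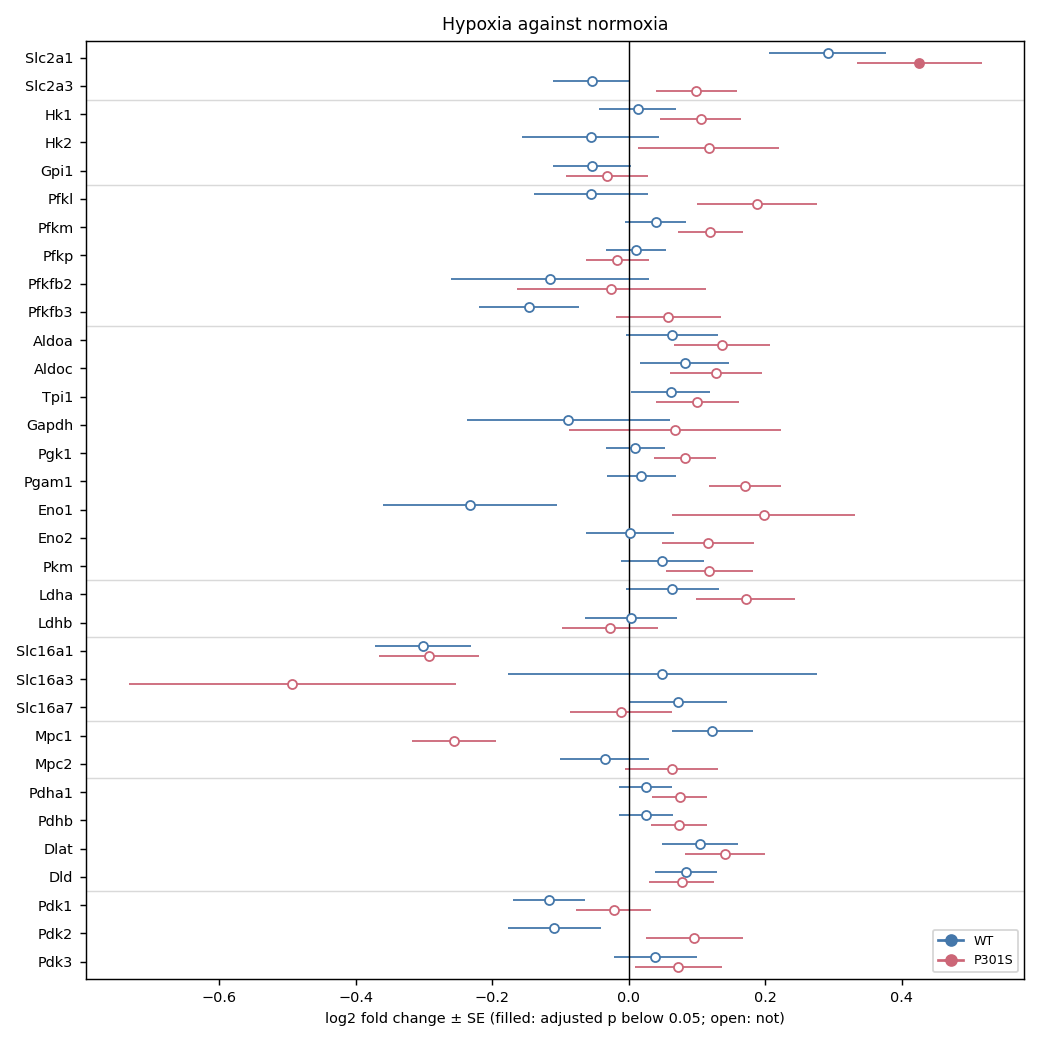
Log2 fold change of hypoxia against normoxia with its SE for the 33 genes in WT (blue) and P301S (red), ordered by role, with filled points called. Slc2a1 lies at 0.29 and 0.43 and Slc16a1 at -0.30 and -0.29, and most lower glycolysis points in P301S lie slightly to the right of 0 without being called.

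By edgeR no member other than Slc2a1 and Slc16a1 was called with hypoxia, other known HIF-1 targets included. With the trend on length and GC content removed, Pfkm (0.12, adjusted p = 0.0420) and Pkm (0.13, adjusted p = 0.0450) were called higher on average. On average over genotypes, Ldha had a log2 fold change of 0.12 ± 0.05 (edgeR adjusted p = 0.245), Aldoa 0.10 ± 0.05 (0.316), Pgk1 0.05 ± 0.03 (0.500) and Pdk1, the kinase that switches pyruvate away from mitochondria, -0.07 ± 0.04 (0.381). Hk2 had 0.03 ± 0.07 and Slc16a3 -0.22 ± 0.16, the latter from 1497 counts over all libraries. In P301S all 9 lower glycolysis genes had a positive value (0.07 to 0.20), and none passed the test (1, Pgam1, at an unadjusted p below 0.05; adjusted p = 0.143). P301S normoxia also enters the genotype comparison in normoxia, so these values and the lower levels there share libraries.

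No member had a hypoxia effect that differed between the genotypes by edgeR, where 0.0394% of all tested genes were called (0.0611% at 50 CPM or more, 0.15% if also short). At an unadjusted p below 0.05 there were 4 members. The smallest p was that of Mpc1, with a difference of -0.38 ± 0.09 (adjusted p = 0.134), which DESeq2 called (adjusted p = 0.0197). DESeq2 called 0.247% of the genes to which it gave an adjusted p. Mpc1 had 32.6 to 38.8 CPM in WT hypoxia (median 33.5) and 31.5 to 36.0 CPM in P301S hypoxia (median 32.3). Its log2 fold change with hypoxia was 0.12 ± 0.06 in WT (adjusted p = 0.433) and -0.26 ± 0.06 in P301S (adjusted p = 0.0641). The hypoxia libraries of P301S all lay below its normoxia libraries, which held for 1.12% of all tested genes. P301S normoxia thus held the highest levels of the 4 groups, though its lowest library (36.2 CPM) lay within the range of WT hypoxia.

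The enzymes downstream and beside the pathway were read from lists of related genes. Of all tested genes, 3.78% were called lower in P301S in normoxia and 7.76% on average. Among genes of at least 50 CPM and under 30 kb these shares were 14.2% and 23.1%. The part of gene length in the calls of these lists was not tested. Of 17 tricarboxylic acid cycle enzymes, all measured, 6 were lower in P301S in normoxia and 11 on average, none was higher, and the median log2 fold change was -0.13 and -0.10. Mdh2, mitochondrial malate dehydrogenase, had -0.24 in normoxia (edgeR adjusted p = 0.0160) and Sdhb, a subunit of succinate dehydrogenase, -0.20 (0.0293). Of 9 shuttle genes that carry cytosolic reducing power into mitochondria, 2 were lower in normoxia and 4 on average, among them Slc25a11, the malate carrier (-0.26, adjusted p = 0.00756), and Gpd1, glycerol phosphate dehydrogenase (-0.32, adjusted p = 0.0405). Of 7 measured pentose phosphate genes, 3 were lower in both comparisons: Tkt (-0.31, adjusted p = 0.0117), Taldo1 (-0.22, adjusted p = 0.0387) and Pgls (-0.38, adjusted p = 0.0490) in normoxia. Rpia, ribose phosphate isomerase, was lower with hypoxia in P301S (-0.29, adjusted p = 0.0286).

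Other isoforms and regulators were called in single genes. Of 20 other glycolytic genes, 1 was lower in normoxia and on average, Pgm1, phosphoglucomutase (-0.17, adjusted p = 0.0269), and Pgm2 was lower with hypoxia in P301S (-0.48, adjusted p = 0.0448). Of 18 other transporters and their chaperones, Bsg, basigin, which brings MCT1 to the membrane, was lower in P301S normoxia (-0.40, adjusted p = 0.0248) and Slc16a10, an aromatic amino acid transporter of the same family, higher (0.51, adjusted p = 0.0349). Of 15 other genes of pyruvate use, Pdk4, a pyruvate dehydrogenase kinase induced in fasting, was higher in P301S under hypoxia (0.49, adjusted p = 0.0250) and on average (0.30, adjusted p = 0.0151), and Lipt2, a lipoyl transferase, was lower in normoxia (-0.47). The 3 kinase genes among the members were not called between genotypes by edgeR or DESeq2: Pdk1 had 0.00 ± 0.04, Pdk2 -0.05 ± 0.05 and Pdk3 -0.12 ± 0.04 (adjusted p = 0.0837) on average, with Pdk3 alone at an unadjusted p below 0.05. Of 16 glycogen genes, Pygb, brain glycogen phosphorylase, was lower in P301S normoxia (-0.17, adjusted p = 0.0248). With hypoxia averaged over genotypes, Phkg1 of the glycogen genes was lower (-0.19, adjusted p = 0.0363). Pdhx of the other pyruvate genes was higher (0.11, adjusted p = 0.0476) and Rpia lower (-0.16, adjusted p = 0.0452), where 1.33% of all tested genes were called.

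Several cell type lists had a median log2 fold change below 0 in P301S normoxia against WT normoxia, with few markers called. The choroid plexus markers were lower in P301S normoxia than in WT normoxia in 14 of 14 (median -0.49, none called, none at an unadjusted p below 0.05). Astrocyte (11 measured, median -0.02) and oligodendrocyte markers (11, median 0.03) held no call in normoxia, and of 13 excitatory neuron markers 1 was lower (median -0.04). Of 11 interneuron markers 1 was higher and 2 were lower, and their centred mean log2 level was -0.02 ± 0.06 (SD, n = 6) in WT normoxia and -0.13 ± 0.07 (n = 5) in P301S normoxia. Of 8 measured microglia markers 7 were negative and none was called (median -0.14, 2 at an unadjusted p below 0.05), Aif1 at -0.54 and Tmem119 at -0.22. Their mean level was 0.09 ± 0.11 in WT normoxia and -0.08 ± 0.23 in P301S normoxia. P301S normoxia replicate 1 stood at 0.31, while replicates 2 to 5 ran from -0.25 to -0.09, below the lowest WT normoxia library (-0.03). That replicate 1 was also the highest of its group in the excitatory list (0.05) and the lowest in the oligodendrocyte list (0.01). WT normoxia replicate 1 was the lowest of its group in the excitatory list (-0.20). Of 11 endothelial markers 7 were negative and none was called (median -0.07), Cldn5 at -0.36 and Ly6c1 at -0.31, with mean levels of 0.01 ± 0.16 and -0.08 ± 0.14. In the same order, mean levels were 0.33 ± 0.50 and -0.01 ± 0.50 for ependymal and -0.04 ± 0.17 and -0.08 ± 0.12 for vessel wall (mural) markers. Those of oligodendrocyte markers were 0.04 ± 0.34 and 0.13 ± 0.11. Without the 6 libraries of lowest choroid plexus markers, 6 members were called on average, all lower: Ldha (-0.29, adjusted p = 0.0108), Tpi1 (-0.26), Aldoa (-0.24), Ldhb (-0.23), Pkm (-0.19) and Pdhb (-0.12). That fit called 7.16% of all tested genes. With a choroid plexus score in the fit, 12 members were called on average, 1 higher and 11 lower, with a median of -0.07. The part of the other cell types in the genotype differences was not tested.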

How the data were processed

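Raw counts of read pairs per gene were made and deposited by the authors for each of the 23 libraries. Per the file headers, featureCounts 1.6.2 counted them over whole gene bodies (Ensembl release 90, GRCm38), with no strand setting although the labels name a stranded kit, from alignments named as free of duplicates. HISAT2, DESeq2 1.6.3 and mm10 are listed in the submitters' processing notes. Reads touching more than 1 gene were dropped by that tool's default.

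Symbols, exon lengths and GC content came from GENCODE M21, of the same assembly, which matched 52489 of 52636 genes and all 33 members, and promoters from RefSeq. Aldoa has a second identifier with 0 counts, which was not used. In R 4.3.3, edgeR 4.0.16 kept 17788 genes (filterByExpr, minimum count 10), scaled libraries by TMM, and fitted 4 group means with robust quasi-likelihood to all 23 libraries (limma 3.58.1). 7 contrasts were tested two-sided, with Benjamini-Hochberg adjustment over all genes. SEs were derived from the F statistic. DESeq2 1.42.0, other scaling, no filter, the compared groups alone, non-robust dispersions, length and GC removal, choroid plexus scores and left-out libraries were alternatives. The fit was tested on simulated data. Groups follow the labels, and replicates are numbered in accession order. Members and lists were chosen with earlier results of these data known. Any member may be named, and of other lists the called genes up to the 5 of lowest p, otherwise the 2 of lowest p, plus 2 defining markers of each cell type.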

Additional observations from a re-analysis of the deposited data

Results flagged for a closer look

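For each gene, the highest and the lowest library of each group were compared with the rest of the group, and the 9 of 132 groups named here held 1 library far from the others. Chance flags about 1 in 20 groups. In P301S normoxia, replicate 1 was highest for Aldoa (949.9 CPM, the others 803 to 834), Pfkl (277 CPM, the others 228 to 239) and Pkm (907 CPM, the others 762 to 800.3). In WT normoxia, replicate 1 was highest for Gapdh (92.5 CPM, the others 66.6 to 73.8), and replicate 4, one of the libraries with few choroid plexus transcripts, was lowest for Ldhb (259 CPM, the others 309.96 to 339) and highest for Slc2a3 (198 CPM, the others 152 to 161). In WT hypoxia, replicate 1, also low in choroid plexus transcripts, was lowest for Pdk1 (59.3 CPM, the others 73.2 to 76.2), and replicate 6 highest for Pkm (1036 CPM, the others 942 to 975). In P301S hypoxia, replicate 5 was lowest for Hk1 (442 CPM, the others 508 to 545).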

How the results depend on the processing

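No fold change of a called member changed sign under any alternative run, and DESeq2's size factors, non-robust dispersions, the choroid plexus score as covariate and edgeR's legacy estimator (chosen after seeing the data) left every count of called members as reported. Of 8 members called between genotypes in normoxia, 5 remained without the filter on low counts, 3 with only the compared groups, 3 with length and GC removed, and 1 without the 6 libraries lowest in choroid plexus. Leaving out 1 library gave 3 to 14, and DESeq2 gave 11 (2 higher, 9 lower). The 1 call between genotypes under hypoxia became 0 in each of the 4 edgeR settings just named, 2 with DESeq2, and 0 to 3 with 1 library left out. Hypoxia in WT gave 0 calls, and 1 with DESeq2. Hypoxia in P301S gave 1 call, 0 without the filter and 0 without the 6 libraries, 3 with DESeq2, and 0 to 1 with 1 library left out. There 0.41% of all tested genes were called, 0.127% without the filter, 0.25% without the 6 libraries and 2.47% with DESeq2. The difference of hypoxia effects gave 0 and, with DESeq2, 1. The averaged genotype comparison gave 12 calls, 6 without the 6 libraries and 8 to 13 with 1 library left out (8 without P301S normoxia replicate 5). Averaged hypoxia gave 2 calls, 4 with length and GC removed (Pfkm and Pkm added) and 1 without the 6 libraries. The share of all tested genes called moved as well. Between genotypes in normoxia it was 6.35%, then 2.28%, 2.13%, 2.43% and 2.16% in the 4 edgeR settings, and 10.2% with DESeq2. Between genotypes under hypoxia it was 1.87%, then 0.711%, 1.07%, 0.748% and 0.089%, and 5.54% with DESeq2. The averaged genotype comparison had 13.1%, and 7.16% without the 6 libraries. Averaged hypoxia had 1.33%, 2.41% with length and GC removed, and 0.334% without the 6 libraries. The cause of these changes was not tested. No paired analysis was possible because the labels give the groups no shared replicate numbers. The members of fewest counts over all libraries were Pfkfb2 (1213) and Slc16a3 (1497), with SEs of 0.10 to 0.20 and 0.16 to 0.33.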
